A study of Caenorhabditis elegans with 2 samples.

Results

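The col genes are the largest family of cuticle collagen genes in *C. elegans*, and 156 of 19973 protein-coding genes on the nuclear chromosomes carry a symbol starting with col-. They were chosen by symbol alone from the Ensembl annotation of the WBcel235 assembly, which the ce11 peak lists also use, and the other 19817 protein-coding genes served for comparison. Chromatin immunoprecipitation followed by sequencing (ChIP-seq) had been carried out on whole L4 larvae, of mixed sex, of strain OP240. Both libraries share 1 genotype, unc-119(ed3) III with the integrated transgene wgIs240, which carries an eGFP fusion of lsy-2, and there was 1 group of 2 biological replicates with no second condition. LSY-2 is a zinc finger protein known for its part in the fate of a left-right asymmetric pair of taste neurons. The lists held 1563 optimal peaks, 22035 candidates from the pooled replicates, 25003 candidates of replicate 1 and 24002 of replicate 2. Sequencing depth is unknown, since no read numbers are given.

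Cuticle collagens are short secreted proteins built around repeats of glycine followed by any pair of residues, and they fold into triple helices in the endoplasmic reticulum of the epidermis. The epidermis makes a new cuticle at each molt, so many col genes are transcribed in pulses, and sets of them are specific to a larval stage or to the adult. In L4 larvae the adult cuticle is about to be made. ChIP signal in whole animals averages over all cells, so a site occupied in epidermis alone cannot be told apart from weak occupancy in many tissues.

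Few col genes had a strong LSY-2 peak. An optimal summit lay within 500 bp of a transcript start at 3 of 156 col genes (1.92%), with an exact 95% interval of 0.398 to 5.52%. Among the other 19817 genes the share was 4.81%. That share lay inside the interval. Within 1000 bp upstream of a start the count was 1 of 156 (0.641%, exact 95% interval 0.0162 to 3.52%), against 5.70% of other genes, a share above the upper bound. The same 3 genes, col-38, col-72 and col-176, made up the count when either window was allowed, for which other genes stood at 5.92%. No condition contrast exists in this design, so these are shares with their counting error and no test between groups of samples was possible.

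Weaker candidate regions, in contrast, lay at col genes about as often as elsewhere. The pooled list placed a candidate summit within 500 bp of 54 col genes (34.6%, exact 95% interval 27.2 to 42.6%), against 29.9% of other genes. For 1000 bp upstream the figures were 51 (32.7%, interval 25.4 to 40.7%) against 30.7%. In replicate 1 alone, 52 col genes (33.3%) had a candidate within 500 bp and in replicate 2 alone 54 (34.6%), against 32.2% and 31.4% of other genes. Upstream, the counts were 50 (32.1%) and 51 (32.7%), against 32.7% and 32.3%. The exact intervals for the 500 bp window, which ran from 26.0 to 41.3% in replicate 1 and from 27.2 to 42.6% in replicate 2, also held the share of other genes. The deposited candidate lists are described as peaks and background, so they hold background regions beside bound ones.

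**Figure D1:**
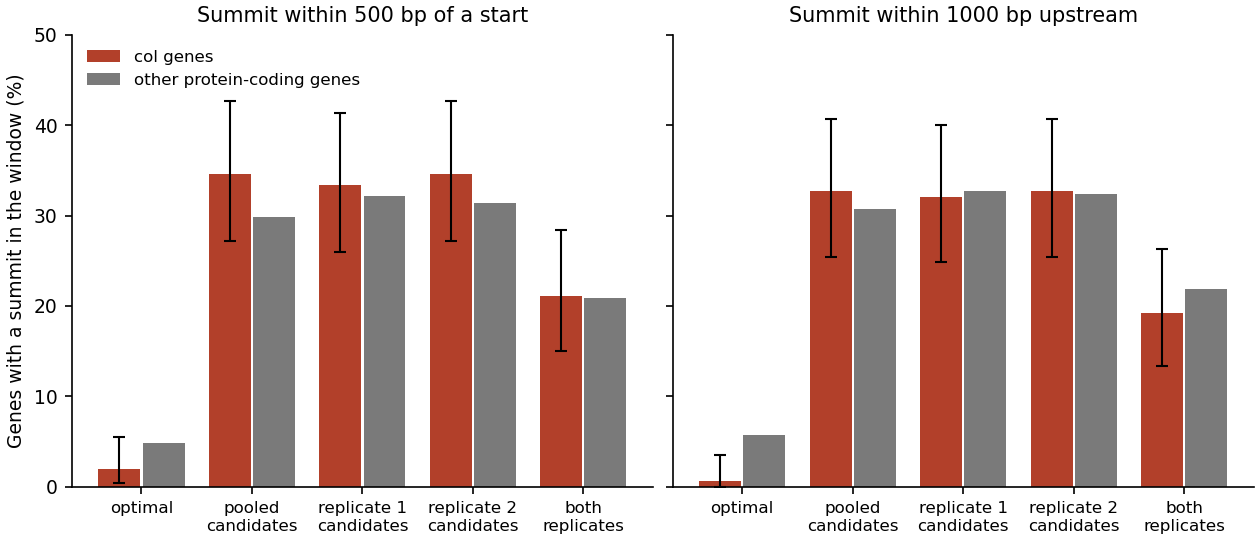
Share of genes (%) with a summit in the window, for col genes (red, with exact 95% intervals) and other protein-coding genes (grey), by peak list. The bars of both gene groups are close in the candidate lists, while in the optimal list col genes stand at 1.92% and 0.641% against 4.81% and 5.70%.

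Every member is accounted for as follows. Besides the 3 genes with an optimal summit, 51 had a pooled candidate within 500 bp and 11 had one only farther upstream. A candidate in a single replicate list or in both, but in neither window of the pooled list, was present at 25 genes. No summit of any list lay in either window at 66 genes. This tally was not made for other genes, so it gives no comparison with them. The median distance from a col start to the nearest optimal summit was 32.5 kb (quartiles 15.6 and 59.0 kb), beside 29.9 kb (10.8 and 68.6 kb) for other genes.

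The strongest peak at a col gene was that of col-38 (WBGene00000615, chromosome II, 8568035 to 8569088 on ce11, minus strand), and it lay between col-38 and its upstream neighbour. The peak (8569412 to 8569624) had a signal of 231 and rank 170 in the optimal list, with its summit 416 bp upstream of the col-38 start. On the other side, the summit lay 423 bp upstream of the start of rpl-5 (WBGene00004416, 8569927 to 8571100, plus strand), a ribosomal protein gene transcribed in the opposite direction. The summit is also inside the annotated noncoding RNA genes F54C9.16 (8569431 to 8569572) and F54C9.17 (8569279 to 8569562). Replicate 1 gave 115 (rank 159) and replicate 2 gave 119 (rank 192), so the peak was among the strongest in both. With the summit nearly midway, the lists do not say to which of these genes the peak belongs.

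The peak at col-72 (WBGene00000648, chromosome II, 3520703 to 3524197, minus strand) lay inside the gene. Its signal was 147 (rank 369), and the summit of the peak (3523634 to 3523842) was 450 bp downstream of the nearest start, in the intron that follows the first coding exon. The replicates differed more here, with 47.8 (rank 669) in replicate 1 and 107 (rank 213) in replicate 2. A second protein-coding gene, W09G10.9 (3521800 to 3523585), lies in the same intron on the opposite strand. It had an optimal summit of its own, with a signal of 89.9, within 500 bp of its start and so inside the span of col-72 but in neither start window of that gene. Of the 32-base words in the 101 bp around the summit, 40% occur once in the genome, whereas at col-38 and col-176 all of them do. The alignment method is not given in the sources used here, so how reads from repeated sequence were placed is unknown.

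The third peak was weak and lay over the coding sequence of col-176 (WBGene00000749, chromosome X, 10077597 to 10078728, plus strand). Its signal of 66.3 ranked 1319 of 1563, near the lowest optimal value of 60.3, and its summit was 165 bp downstream of the start in the first coding exon. Replicate 1 gave 31.6 (rank 1461) and replicate 2 gave 38.9 (rank 1209). No other protein-coding start lay closer than 2474 bp to this summit. A separate pooled candidate 956 bp upstream of col-176 had a signal of 33.4.

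**Figure D2:**
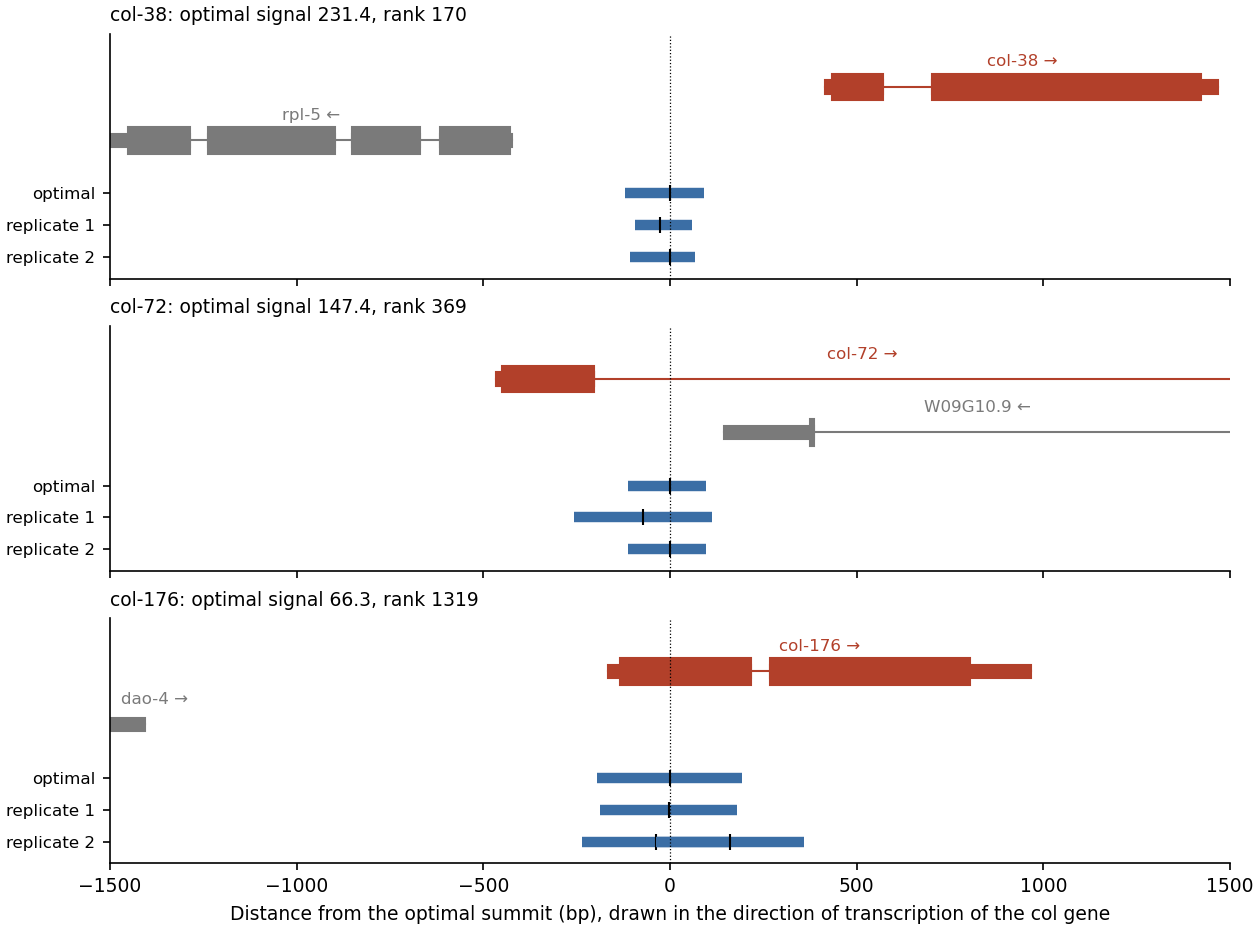
Map of the 3 col genes with an optimal peak, centred on the optimal summit and drawn along the direction of transcription of the col gene (x axis, bp). The nearest protein-coding genes are grey and noncoding genes are not drawn. Thick boxes are coding exons, thin boxes untranslated exons, blue bars peaks and black ticks summits; the peak lies between col-38 and rpl-5, in an intron of col-72, and over the first exon of col-176.

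The summit windows of these genes are shown because they hold the only optimal summits near a start in the family, together with the window of col-85, the strongest candidate within 500 bp that missed the optimal list, and the window that col-159 and col-160 share. Each is 101 bases of the WBcel235 assembly, read on the strand of the col gene. Capitals mark the word GAGAGA or its reverse complement, and likewise the word ACGCAG and the word CGTCTC on either strand. These words were chosen with earlier results of these data known, and lay in 29.8, 18.7 and 20.8% of all optimal summit windows in that order. The positions are chrII:8569454-8569554 (col-38), chrII:3523680-3523780 (col-72), chrX:10077712-10077812 (col-176), chrII:12494707-12494807 (col-85) and chrV:13202255-13202355 (col-159 and col-160), all on the minus strand except col-176.
col-38: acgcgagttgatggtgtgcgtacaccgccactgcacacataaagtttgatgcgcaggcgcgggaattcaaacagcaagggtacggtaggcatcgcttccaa
col-72: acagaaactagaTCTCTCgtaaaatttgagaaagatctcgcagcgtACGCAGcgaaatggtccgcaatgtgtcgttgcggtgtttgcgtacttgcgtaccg
col-176: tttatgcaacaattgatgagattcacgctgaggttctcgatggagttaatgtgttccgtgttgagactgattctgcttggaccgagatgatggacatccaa
col-85: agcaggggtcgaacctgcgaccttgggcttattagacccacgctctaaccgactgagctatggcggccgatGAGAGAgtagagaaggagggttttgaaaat
col-159: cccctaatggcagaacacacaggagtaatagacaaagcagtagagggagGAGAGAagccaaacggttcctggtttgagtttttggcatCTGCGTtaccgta

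None of the 3 words was found in the col-38 and col-176 windows, although col-38 has the highest signal in the family. The col-72 window holds a GAGAGA and an ACGCAG match, and the GC content of the 3 windows is 54.5% (col-38), 48.5% (col-72) and 43.6% (col-176). Not shown are the windows of col-142, col-42 and col-101, which hold none of the words. Their candidates were stronger than that shared by col-159 and col-160. Among all 1563 optimal summit windows, 47.0% hold at least 1 of the words. A match is only a run of letters, and its absence from a window says nothing about the protein.

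Promoters of col genes held these words about as often as other promoters. In the 1000 bp upstream of the start, GAGAGA or its complement lay at 51.9% of the 156 col genes and 45.7% of other genes, beside 60.1% of the 1129 other genes with an optimal summit there. ACGCAG lay at 21.2% of col genes, 20.8% of other genes and 40.3% of other genes with an optimal summit. CGTCTC lay at 24.4%, 26.4% and 46.9% in the same order. Around the strongest candidate of each gene, any of the 3 words lay in 13 of 52 distinct col windows (25%) and in 21.7% of 5291 windows at other genes.

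Shares of col genes and other genes were close at low signal and separated toward the lowest optimal signal. At a minimum pooled signal of 20, 26.9% of col genes and 24.4% of other genes had a candidate within 500 bp, and at 25 the shares were 17.9% and 17.5%. At 30 they were 11.5% and 13.4%, at 40 they were 7.05% and 8.70%, at 50 they were 3.21% and 6.19%, and at the lowest optimal signal 1.92% and 4.81%. Above it both shares were small, with 1.28% and 3.26% at 80, 1.28% and 2.44% at 100, and 0.641% and 1.06% at 200, where col-38 alone was left. Upstream, the shares at 20 were 23.7% and 25.8%, at 40 they were 6.41% and 10.2%, at 50 they were 1.92% and 7.28%, and at 200 they were 0.641% and 1.24%. Read the other way, 3 of the 54 col genes with a pooled candidate within 500 bp had an optimal one (5.56%, exact 95% interval 1.16 to 15.4%), against 16.1% of 5922 other genes. Upstream it was 1 of 51 (1.96%, interval 0.0496 to 10.4%) against 18.6% of 6078. The median signal of the strongest candidate was nevertheless close, at 25.6 for col genes (quartiles 20.5 and 36.4) and 27.8 for other genes (21.3 and 43.9). Within 500 bp, the col shares rest on 5 genes at a signal of 50 and on 3 at the lowest optimal signal. At the latter, the exact 95% interval of the col share (0.398 to 5.52%) held the share of other genes.

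**Figure D3:**
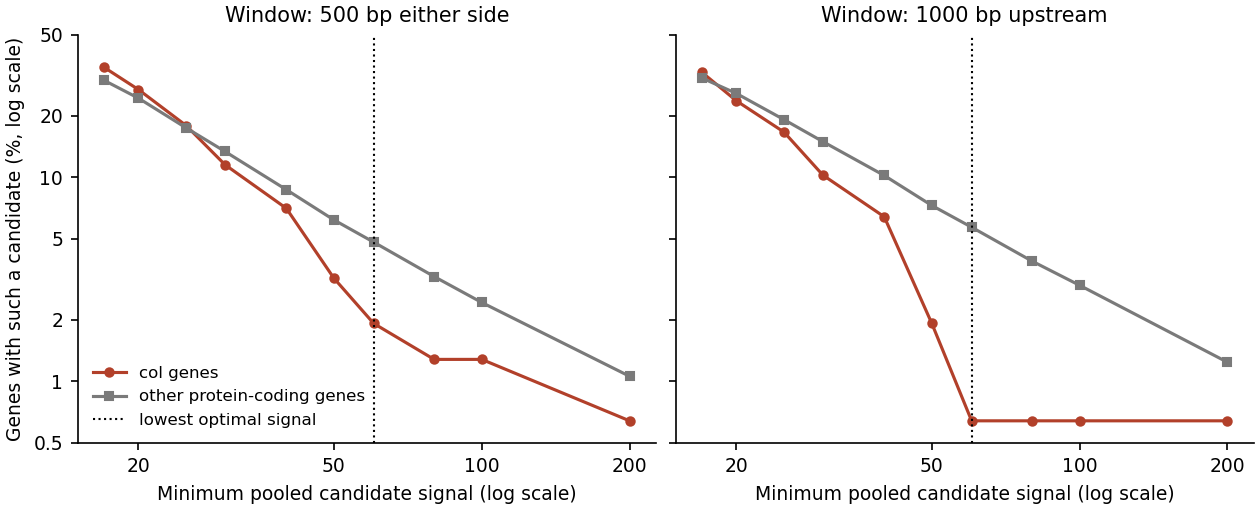
Share of genes (%, log scale) with a pooled candidate at or above a minimum signal (x axis, log scale), for windows of 500 bp either side of a start (left) and 1000 bp upstream (right). Col genes (red) lie at or above other genes (grey) up to a signal of 25 in the left panel and below them from 30 upward, while in the right panel they lie below from 20 upward; beyond the dotted line at 60.3 the red points rest on 3 genes or fewer.

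Just under the lowest optimal signal stood col-63 (WBGene00000639, chromosome I), whose pooled candidate 632 bp upstream had a signal of 57.0 (rank 1729). Its replicates gave 21.7 and 26.5 at this site. Within 500 bp, the next genes were col-85 (WBGene00000660, 53.1), col-142 (50.8), col-42 (48.0), col-101 (47.0), and col-159 and col-160 (45.3, a shared candidate). They were followed by col-89 (40.6), col-71 (40.2), col-144 (39.6) and col-166 (39.3). The roles of these single collagens are not stated here, since the annotation names them by family only.

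The setting of these candidates varied. The col-85 summit lay 338 bp downstream of the start in an intron, inside the tRNA gene WBGene00014524, and 44.3% of the 32-base words around it were unique. The col-142 summit lay 236 bp upstream, with 38.2 in replicate 1 (rank 1004) but 13.1 in replicate 2 (rank 12217). For col-101 the replicates gave 29.7 and 27.3, and for col-159 and col-160 they gave 20.4 and 24.0. The candidates of col-42 and col-144 lay in their own coding exons, 281 and 35 bp downstream of the start. The col-71 candidate lay nearer to the start of another gene, Y49F6B.2. For 50 of the 54 col genes with a pooled candidate within 500 bp, the strongest lay nearest to the gene's own start.

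The remaining candidates within 500 bp ran from 36.6 at col-63, a second site 386 bp upstream of its start, down to 17.7 at col-50. After col-63 came 36.0 at col-137, 375 bp downstream of the start in a coding exon, and 34.3 at col-153, 11 bp upstream. The col-50 gene had no replicate candidate within 500 bp and one of 10.7 in replicate 2 farther upstream. Among the 11 genes with a pooled candidate only farther upstream, the signals ran from 17.4 at col-174 to 41.3 at col-62. The col-62 candidate lay 762 bp upstream, with 16.6 in replicate 1 and 25.9 in replicate 2, while that of col-110 (34.6) had a counterpart of 26.1 in replicate 2 alone. Of the 25 genes with replicate candidates only, col-83 (13.9 and 15.8) and col-104 (15.1 and 9.37) had one within 500 bp in both replicates, and no signal of the 25 was above 15.8.

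The strongest pooled candidate fell in the gene's own coding exons at 16 of 54 col genes (29.6%, exact 95% interval 17.98 to 43.6%), against 15.2% of 5922 other genes. Replicate 1 gave 26.9% (interval 15.6 to 41.0%, which holds the 18.5% of other genes), and replicate 2 gave 29.6% against 15.4%. Col genes are shorter, with a median length of 1220 bp beside 2038 bp, and their part in this share was not tested. Upstream of the nearest start lay 33 of the 54 (61.1%), beside 67.9% of other genes. In the optimal list 91.9% of the 954 other genes had their strongest summit upstream, and 11 had it in their own coding exon. For the col genes it was upstream in 1 of 3, at col-38.

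The candidates in coding exons were weak in both gene groups. Their median signal was 22.04 over the 16 col genes and 22.6 over 899 other genes. Outside the gene on the upstream side, the median was 27.2 over 31 col genes and 31.9 over 3533 other genes. Of those upstream candidates, 1 of 31 at col genes and 22.8% at other genes were in the optimal list.

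**Figure D4:**
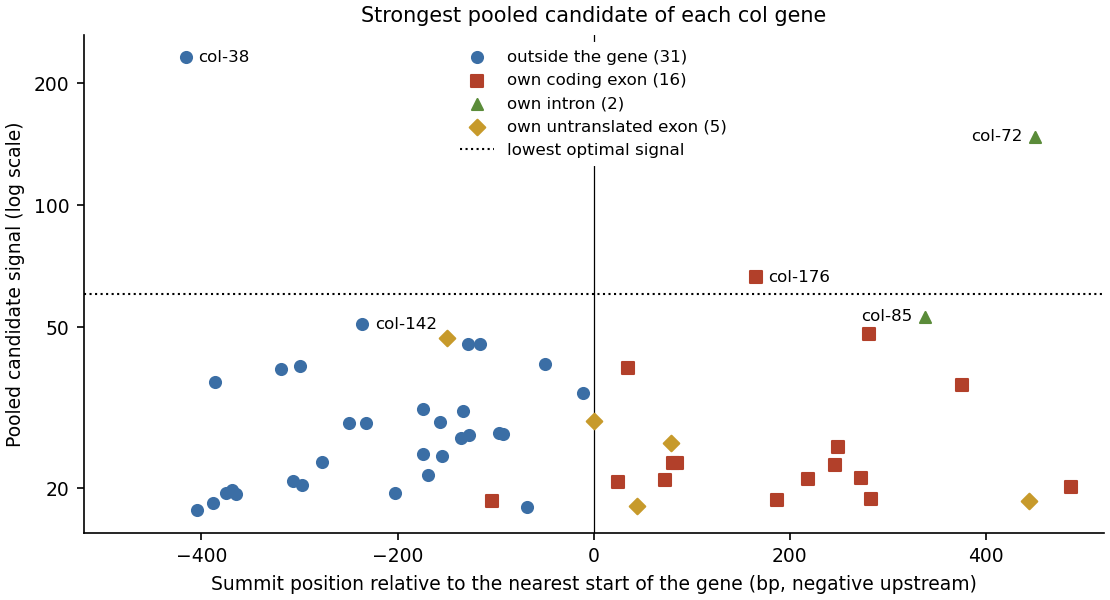
Signal (log scale) of the strongest pooled candidate within 500 bp of each of the 54 col genes that had one, against its summit position relative to the nearest start (bp). Marker shape and colour give the place of the summit in the gene; only col-38, col-72 and col-176 lie above the dotted line at the lowest optimal signal of 60.3, and the 16 coding-exon summits have a median signal of 22.04.

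The replicates placed candidates at overlapping but not identical sets of col genes. Both replicates had one within 500 bp at 33 of 156 genes (21.2%, exact 95% interval 15.03 to 28.4%), against 20.9% of other genes. Replicate 1 alone had one at 19, replicate 2 alone at 21, and neither at 83, beside 2230, 2074 and 11366 of the 19817 other genes. At 31 of the 33 genes the peaks of the replicates overlapped (93.9%), beside 90.3% of 4147 other genes. In the upstream window both replicates had a candidate at 30 genes (19.2%), against 21.9% of other genes.

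Among the 1563 strongest candidates of each replicate, 4 col genes had one within 500 bp in replicate 1 (2.56%) and 3 in replicate 2 (1.92%). Of other genes, 4.58% and 4.71% had one. The genes col-38, col-72 and col-176 were in both sets (1.92%, against 3.54% of other genes), and col-142 was in that of replicate 1. Across the 33 genes, the signals of the replicates had a Spearman correlation of 0.39, beside 0.68 across 4147 other genes. These are descriptions across genes, which share libraries and in places peaks. The 54 col genes with a replicate 2 candidate within 500 bp had signals of 9.31 to 119, beside 9.23 to 3946 at 6221 other genes. The part of this range and of the group sizes in the correlations was not tested.

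**Figure D5:**
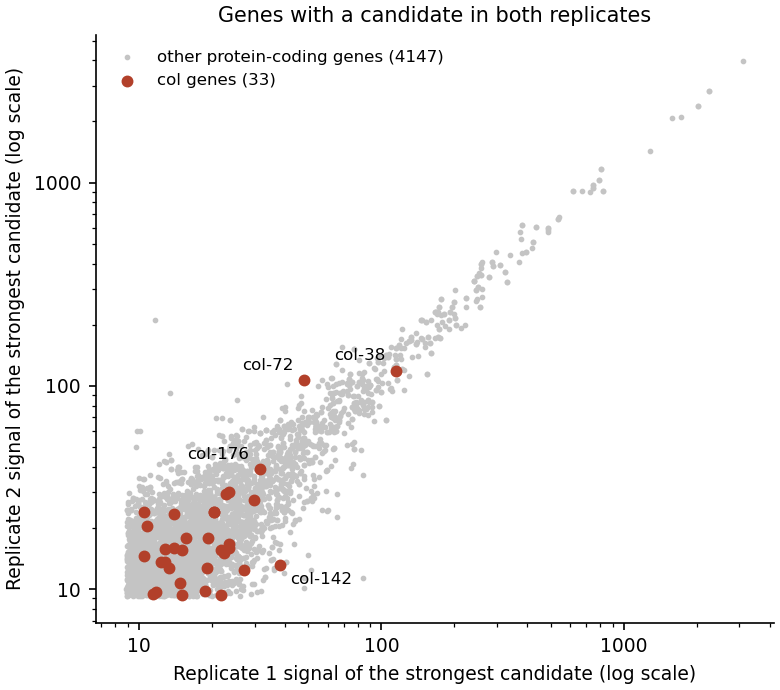
Signal of the strongest candidate within 500 bp in replicate 1 (x axis, log scale) and replicate 2 (y axis, log scale) for genes with one in both; each point is a gene. The 33 col genes (red) lie within the range of the 4147 other genes (grey), which reaches higher. The highest col gene is col-38 at 115 and 119, and the scales of the replicates are separate.

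Of 5 col genes named for their known expression or role, none had an optimal summit and 3 had a pooled candidate. For col-19 (WBGene00000608, chromosome X, 421707 to 422691), a marker of the adult epidermis that the transcription factor LIN-29 activates, no list had a summit in either window. The nearest optimal summit was 11.5 kb from its start. No list had one at col-99 either, which encodes a membrane-anchored collagen. The choice by symbol thus takes in a gene outside the short secreted kind described above. The promoters of col-10 and col-12 are used to drive genes in the epidermis. At col-10 a pooled candidate of 29.2 lay 157 bp upstream and was matched in replicate 2 alone (28.1, rank 2233), above the median of 25.6 over col genes with a candidate, and at col-12 one of 18.1 lay 44 bp downstream and was matched in replicate 1 alone (14.5). At col-17, which is active in larvae and lowered in adults through LIN-29, a pooled candidate of 20.9 lay 307 bp upstream, and replicate 2 had a separate candidate of 11.4 in the window.

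By chromosome, col genes are spread differently from other genes, with the most on IV (41) and V (31) and the fewest on III (12). The optimal summits within 500 bp lay at 2 of 24 col genes on chromosome II and 1 of 27 on X, where 4.73 and 3.96% of other genes had one. There was none at the 21 on I, 12 on III, 41 on IV and 31 on V, where 7.14, 7.27, 4.88 and 2.66% of other genes had one. Candidates stood apart on V, where 16 of 31 col genes had a pooled candidate within 500 bp (51.6%, exact 95% interval 33.1 to 69.8%), against 22.1% of other genes there. On I the figures were 5 of 21 (23.8%, interval 8.22 to 47.2%) against 35.8%, and on IV 10 of 41 (24.4%, interval 12.4 to 40.3%) against 28.9%. The chromosomes were compared after the values were seen, and there were 6 of them. Both col-159 and col-160, which share a candidate, count among the 16 on V, so the interval treats them as independent. Start regions of some of the 16, among them col-10, col-144 and col-146, hold sequence that is not unique in the genome. The part of either in the share on V was not tested.

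A divergent protein-coding start within 1000 bp upstream was present at 24 of 156 col genes (15.4%) and at 18.3% of other genes. Other genes with such a neighbour had an optimal summit within 1000 bp upstream at 13.3%, those without at 3.98%. The corresponding counts for col genes were 1 of 24, which is col-38 with rpl-5 as its neighbour, and 0 of 132. The part of neighbouring genes in these counts was not tested. An adjacent col gene was present at 45 members, none of which had an optimal summit, and 20 of these 45 had a pooled candidate within 500 bp, beside 34 of the other 111 (44.4% and 30.6%). Of the 257 other genes adjacent to a col gene, 26.8% had a pooled candidate and 3.89% an optimal summit within 500 bp, and of those not adjacent to one, 29.9% and 4.83%. A single strongest candidate served a pair of col genes at 2 places, for col-46 with col-47 and for col-159 with col-160.

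Start regions of col genes were less often unique in sequence. Within 500 bp of the start, fewer than 90% of 32-base words occurred once in the genome at 37 col genes (23.7%), against 11.8% of other genes. Of these 37, 14 had a pooled candidate within 500 bp (37.8%) and none an optimal summit, beside 13.2% and 2.23% of the 2337 other genes with such a window. Among genes with a more unique window, 40 of 119 col genes (33.6%) and 32.1% of other genes had a pooled candidate. There, 3 of 119 col genes had an optimal summit within 500 bp (2.52%) against 5.16% of other genes, and 1 of 119 upstream (0.840%) against 6.10%. The part of repeated sequence in the values of single candidates was not tested.

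Of 8 genes for prolyl hydroxylation and folding of collagen, a list chosen with earlier results of these data known, 2 had an optimal summit within 500 bp and 3 within 1000 bp upstream, beside 4.81% and 5.70% of genes other than col genes. The first was pdi-2 (chromosome X), which encodes the protein disulfide isomerase subunit of the prolyl hydroxylase, with 83.4 pooled, 52.7 in replicate 1 and 34.9 in replicate 2, 56 bp upstream of the start. The isomerase gene pdi-6 had 162 pooled, 55.0 and 99.9 in the replicates, 24 bp upstream. For pdi-3 the summit of 334 lay 668 bp upstream and nearer to the start of ubql-1, which encodes a ubiquilin. The hydroxylase genes dpy-18 and phy-2 had candidates of 45.4 and 21.2 and no optimal summit. For phy-3 and phy-4 there was neither an optimal summit nor a pooled candidate within 500 bp. At pdi-1 a candidate of 55.5 also missed the optimal list. All optimal summits of the list thus lay at pdi genes and none at a hydroxylase gene.

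Collagens with names from their mutant shapes held no strong peak. None of 20 such genes (bli, dpy, lon, rol and sqt) had an optimal summit, and 6 had a pooled candidate within 500 bp (30%), beside 4.81% and 29.9% of genes other than col genes. The highest were bli-6 (53.6), dpy-10 (37.9) and lon-3 (34.1). None of 7 genes for collagen cleavage and cross-linking had an optimal summit, nor had any of 4 basement membrane and other collagens or 35 cuticlin genes, which encode noncollagenous cuticle proteins. Pooled candidates within 500 bp were found at 1, 1 and 7 of these (14.3, 25 and 20%, to be read against the same 29.9%), with median signals of 21.96, 21.9 and 19.6. An upper limit of 16.8% for the 20 named collagens follows from the exact 95% interval of a count of 0, so these short lists do not show a difference from other genes.

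Of 15 regulators of cuticle and molting genes, also listed with earlier results known, 6 had an optimal summit in either window and 5 within 500 bp, beside 5.92% and 4.81% of genes other than col genes. The highest within 500 bp was lin-28 (130 pooled, 46.7 and 82.7 in the replicates), an RNA-binding protein that times larval development. Next came myrf-1 (69.8), a membrane-bound transcription factor needed for molting, lin-42 (67.1), the worm relative of Period, and lin-14 (63.5), a timing factor of early larvae. The nuclear receptor gene nhr-25, which acts in epidermis and molting, had 61.3, close to the lowest optimal signal. For sma-9, a zinc finger gene of the body size pathway, a summit of 116 lay 846 bp upstream. No optimal summit lay at lin-29, nhr-23, blmp-1, elt-1 or elt-3, whose pooled candidates had signals between 18.1 and 35.1, nor at bed-3, grh-1, sma-3 or dbl-1, which had no pooled candidate within 500 bp.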

How the data were processed

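The deposited files were peak lists in narrowPeak format on ce11, the WBcel235 assembly; no peak ran past a chromosome end of that assembly. Per the text listings deposited with the samples, the authors derived candidate lists ("peaks and background") from alignment files, for each replicate and pooled, and an optimal list from them by the irreproducible discovery rate. The aligner, caller and threshold are not given in the sources used here. Column 7 of the deposited lists holds the signal; its scale differs between lists, so it served to rank and describe peaks within a list. As the authors deposited them, −log10 q values stop at a maximum that 1695 pooled candidates share. All 1563 optimal peaks were the strongest pooled candidates. The same lists on ce10 were not used.

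Starts of all annotated transcripts came from Ensembl release 115 and sequence from RefSeq. A gene counted as having a summit when it lay within 500 bp of any start, or within 1000 bp upstream; the strongest in the window gave its signal. Shares have exact (Clopper-Pearson) 95% intervals, which cover counting error only. No condition contrast exists, so no test was run; enrichment was not tested. Uniqueness is the percentage of 32-base words occurring once among the nuclear chromosomes, on both strands. Window assignment was tested on simulated data. Python 3.11.15, numpy 2.4.6 and scipy 1.17.1 were used.

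Named were all col genes with an optimal summit, the 10 further ones with the strongest pooled candidate and candidates in both replicates, col genes within 10% of the lowest optimal signal, 5 of known expression or role, related genes with an optimal summit, and neighbours sharing a peak. Other genes were named after their values were seen. The family and the lists were chosen with earlier results of these data known, while the members of the family follow from the symbol alone. The alternatives were other windows, stricter or single-replicate lists, other assignments and other backgrounds. In 3 of the related lists 1 gene each matched no protein-coding symbol.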

Additional observations from a re-analysis of the deposited data

How the results depend on the processing

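Under all 13 alternatives for the 500 bp window and all 11 for the upstream window, the share of col genes with an optimal summit stayed below that of other genes. The difference, col minus other, was -2.89 percentage points within 500 bp and -5.06 upstream. Within 500 bp it became -4.55 with a window from 1000 bp upstream to 200 bp downstream and -10.6 among genes with a pooled candidate. It was smallest, at -1.51, with the 781 strongest optimal peaks alone. Against genes with a locus-type symbol alone, the upstream difference was -6.79, and it was smallest, at -2.73, with the 781 strongest optimal peaks. With the strongest candidates of a single replicate the difference ran from -2.79 to -2.02 within 500 bp and from -4.90 to -4.23 upstream. Pooled candidates within 500 bp stayed at or above the level of other genes (main difference 4.73, from 0.216 to 8.42 over 11 alternatives). Upstream, that difference was 2.02 and ran from -4.40 to 4.08 over 10. The difference for candidates in both replicates was 0.227 and ran from -3.53 to 0.974 over 4. Leaving out a replicate gave 1.15 and 3.22 for candidates within 500 bp, and -0.698 and 0.351 upstream. The ratio of median signals, col to other, was 0.922, and 0.920 to 1.02 from single replicates, so no direction holds for it; the cause was not tested. Limits to unique windows and to genes with no divergent neighbour were chosen after seeing the data. No paired analysis was possible because the study has 1 group. Depth is unknown, and with 156 genes the exact interval for 3 counted ones spans 0.398 to 5.52%.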
